A study of Mus musculus with 6 samples.

Results

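Translation initiation and elongation factor genes were described in mouse neural stem cell lines, 3 labelled FoxO-null and 3 labelled wild-type. A gene belonged to the set when its symbol on the array began with Eif and a digit from the initiation factor families, or with Eef and a digit from the elongation factor families. Eif2s3x and Eif2s3y, a pair encoded on the sex chromosomes, were left out. The rule used names and no measured value. All levels below are MAS5 signals, in arbitrary units. It gave 56 genes of the 18193 that the array represents with a probe set of 1 gene, and each was read from its probe set of highest mean signal. Of the 56, 54 were bright enough to be tested. Each of Eif4a3, a helicase of the exon junction complex, and Eef2kmt, a methyltransferase of eEF2, had 1 single-gene probe set. In both, it lay at or under background on all 6 arrays, so neither gene was tested. Whether a probe set this dim misses its transcript was not tested.

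RNA of each line was hybridised to 1 Affymetrix array, and the labels call the lines independent. The title concerns the FoxO transcription factors, which insulin and growth factor signalling keeps out of the nucleus, and their part in neural stem cell homeostasis. The sources used here do not say which FoxO genes the null lines lack, how or when they were deleted, or the strain, age or brain region of either group, and they name no treatment of either. Foxo transcripts did not follow the labels. Of 9 probe sets for Foxo1, Foxo3 and Foxo4, 8 had a positive log2 fold change, higher in the lines labelled FoxO-null, and in 5 all 3 of those lines lay above all 3 labelled wild-type. The MAS5 signal of 1 Foxo3 probe set was 384, 423 and 454 in the lines labelled FoxO-null, against 207, 249.6 and 224 in those labelled wild-type. Where on each transcript these probes lie relative to a deletion is not known here, so this neither checks nor overturns the labels. Every direction below is that of the labels.

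As background, initiation starts when eIF2 brings the initiator tRNA to the small ribosomal subunit, with eIF1, eIF1A, eIF3 and eIF5. The eIF4F complex, made of the cap-binding protein eIF4E, the scaffold eIF4G and the helicase eIF4A, recruits that subunit to the mRNA cap. The elongation factors eEF1A and eEF2 then deliver aminoacyl-tRNA and move the ribosome along. The pathway is controlled chiefly by kinases that phosphorylate eIF2 alpha and by the kinase complex mTORC1, which releases eIF4E from the 4E-binding proteins. Akt signalling both activates mTORC1 and inhibits FoxO factors. In Drosophila the 4E-BP gene Thor is a known FoxO target.

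Array medians ranged from 25.5 to 32.8, and every array as deposited had the same mean of 100 after trimming 2% at each end. A difference in total RNA per cell would therefore not be seen. The 18S ribosomal RNA control read 211 on the array of wild-type line 1 and at most 38.9 on the others. All 9 neural stem cell markers measured were above background on all arrays. Of these, 4 (Msi1, Prom1, Slc1a3 and Nr2e1) were higher in all lines labelled FoxO-null, and the rest overlapped. Summed oligodendrocyte lineage markers were 7547 to 8031 in the lines labelled FoxO-null and 4179 to 5392 in those labelled wild-type, with the myelin gene Mog under background throughout, and 3 of the 5 measured (Mbp, Cnp and Sox10) were higher in all lines labelled FoxO-null. Summed astrocyte markers were 3303 to 3950 in the lines labelled FoxO-null and 2687 to 3213 in those labelled wild-type, but only 2 of the 5 (Gfap and Aqp4) separated, and Aldh1l1, which carries most of the sum, overlapped. Summed neuron markers overlapped, at 1423 to 1450 in the lines labelled FoxO-null and 1343 to 1645 in those labelled wild-type. Map2 carries most of that sum. Of the 7 measured, Tubb3 and Syt1 were lower in all lines labelled FoxO-null, Syp was higher in all, and the rest overlapped. Of 5 blood and microglia markers measured, 1 (Csf1r) was above background on all arrays, and Ptprc and Aif1 were at or under it on all. Of 6 fibroblast and endothelial markers, 1 (Col1a2) was above background on all arrays, and Pecam1 was at or under it on all. The sums of both lists overlapped between the groups, at 86.7 to 118 and 102 to 186 in the lines labelled FoxO-null, against 87.1 to 114 and 90.9 to 180 in those labelled wild-type. The part of the stem cell, glial and neuron marker differences in the results below was not tested. In bulk RNA, fewer cells of a type and less RNA per cell cannot be told apart.

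No translation factor gene passed the adjusted threshold between the groups. On log2(signal + 5.94), limma adjusted over 12663 genes called 0 of 54 members at an adjusted p under 0.05, and 5 genes in all, or 0.0395% of those tested. The smallest adjusted p of a member was 0.33, for Eif3b. At an unadjusted p under 0.05, 3 members (5.56%) were lower in the lines labelled FoxO-null, against 4.9% of all genes, and 0 were higher, against 5.31%. These counts are near the background or below it. With 3 lines in each group, the smallest two-sided p that an exact permutation test of 1 gene allows is 0.1.

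The members leaned to the lower side by small amounts. Of the 54, 34 (63.0%) had a negative log2 difference (mean of the lines labelled FoxO-null minus mean of those labelled wild-type), against 48.2% of all genes. Their median was -0.070, against 0.0099 over all genes. In 10 members (18.5%) all 3 lines labelled FoxO-null lay below all 3 labelled wild-type, against 7.93% of all genes. Eif3h (1.85%) alone showed the opposite order, against 8.08% of all genes. Its groups stayed apart in 14 of 16 alternative settings, and median centring was among those where they overlapped. Members are measured on the same 6 arrays and are not independent of each other, and no test was run on the list. With each array centred on its median in place of the authors' scaling, 45 of 54 members (83.3%) were negative, against 59.0% of all genes, and the medians were -0.14 for members and -0.058 for all genes. Median centring moves every gene by the same amount, so the distance between both medians, 0.080, is the same by construction.

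**Figure D1:**
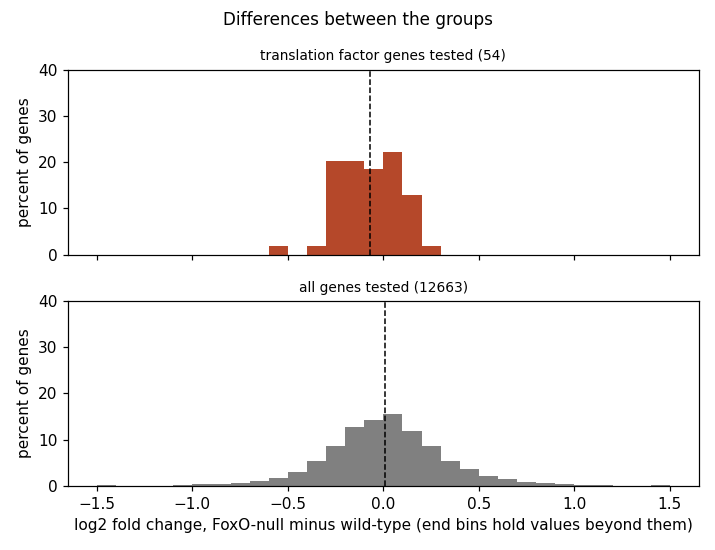
Log2 fold change (FoxO-null over wild-type, by the labels) for the 54 tested translation factor genes (top) and all 12663 tested genes (bottom), as the percent of genes in each bin, with the median dashed. The members lie between -0.58 and 0.26, around a median of -0.070.

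The range of differences among the members was narrow. Their log2 fold changes ran from -0.58 for Eif2ak4 to 0.26 for Eif4e3, an eIF4E relative that was under background on 2 arrays and is named here for its value. For 45 of 54 members (83.3%) the 95% interval of the fold change stayed within 1.5-fold either way, against 42.6% of all genes. For 52 members (96.3%) it stayed within 2-fold, against 77.3%. The median MAS5 signal was 592 over the members' probe sets and 121 over those of all genes, which does not rank transcript levels. The median SD over the 6 arrays was 0.15 for members and 0.25 for all genes on the log2 scale.

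**Figure D2:**
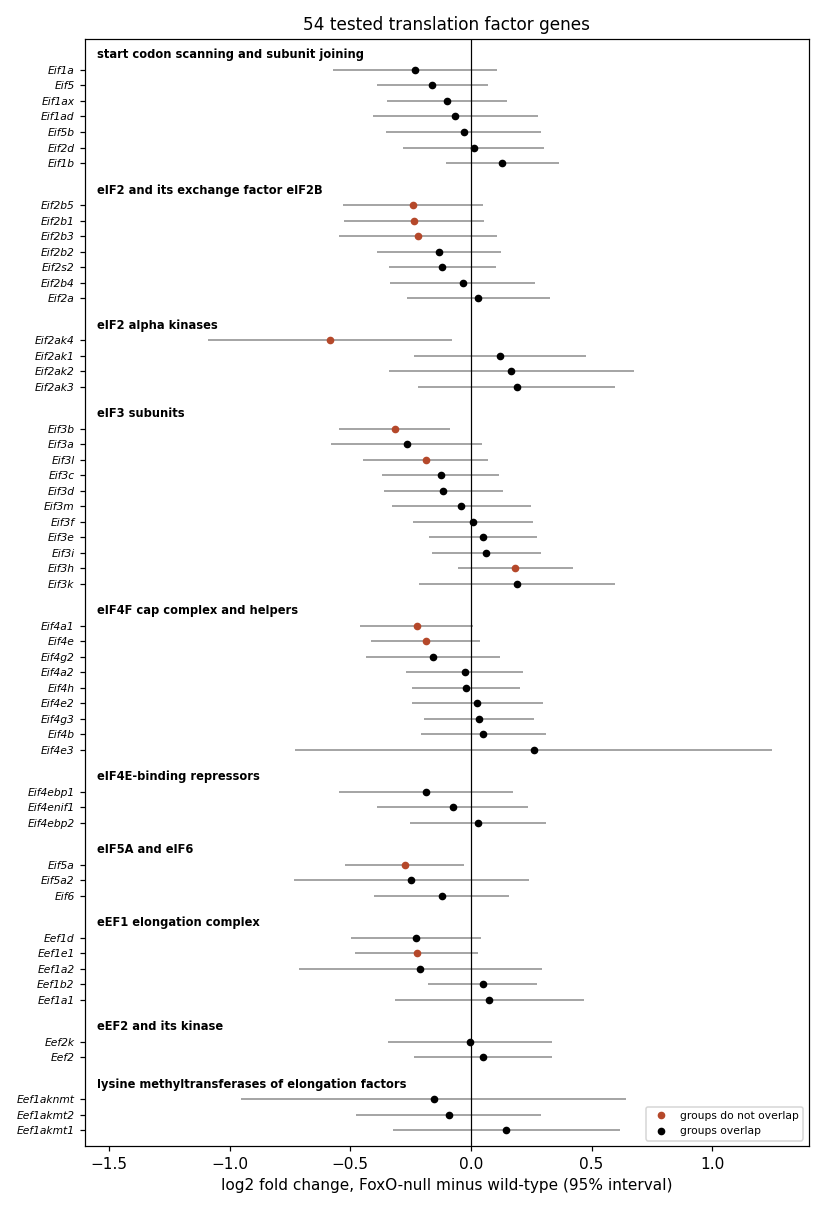
Log2 fold change (FoxO-null over wild-type, by the labels) with its 95% interval for each of 54 tested translation factor genes, grouped by role. Red points mark the 11 genes whose groups do not overlap, 10 on the lower and 1 on the higher side.

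For 7 genes listed under eIF2 and eIF2B the median log2 fold change was -0.13, and 6 were negative (85.7%, against 48.2% of all genes). The list held Eif2s2, Eif2a and the Eif2b genes, and Eif2a, at 0.031, was the positive one. eIF2B is the exchange factor that reloads eIF2 with GTP. Its subunits Eif2b1, Eif2b3 and Eif2b5 were those lower without overlap (42.9% of the 7, against 7.93% of all genes). These are outside the rule for named genes and were chosen after their values were seen. Eif2b5, the catalytic subunit, read 201, 208 and 179 in the lines labelled FoxO-null, against 227, 224 and 246 in those labelled wild-type (log2 fold change -0.24 ± 0.13 SE, limma adjusted p = 0.569). Eif2b1 read 277, 309 and 298 in the lines labelled FoxO-null, against 315, 330.4 and 404 in those labelled wild-type. Eif2b3 read 125, 124 and 118 in the lines labelled FoxO-null, against 147, 151 and 133 in those labelled wild-type. In each of the 3 genes the gap between the nearest lines of the groups was smaller than the range within the group labelled wild-type. Eif2s1, which encodes eIF2 alpha, was not analysed here.

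The 4 kinases of eIF2 alpha did not share a direction: 3 were positive and 1 negative (25%, against 48.2% of all genes). Their median was 0.14. Eif2ak4 (GCN2, the kinase that senses uncharged tRNA) read 43.7, 61.7 and 39.1 in the lines labelled FoxO-null, against 74.0, 77.2 and 70.8 in those labelled wild-type. All 3 lines labelled FoxO-null were lower, at -0.58 ± 0.23 (SE) on the log2 scale, but limma's adjusted p was 0.413. A second, dim Eif2ak4 probe set read 22.8, 22.3 and 55.7 in the lines labelled FoxO-null, against 23.8, 36.0 and 4.17 in those labelled wild-type, at 0.66 ± 0.56 (SE), so the probe sets of this gene differ in sign. Eif2ak1 (HRI, the haem-regulated kinase) read 179, 143 and 177 in the lines labelled FoxO-null, against 143, 138 and 177 in those labelled wild-type. Its groups overlapped, at 0.12 ± 0.16 (SE). Eif2ak2 (PKR, activated by double-stranded RNA) read 70.3, 50.6 and 79.6 in the lines labelled FoxO-null, against 61.9, 51.0 and 61.6 in those labelled wild-type. Eif2ak3 (PERK, the kinase of the endoplasmic reticulum) read 252, 169 and 179 in the lines labelled FoxO-null, against 191, 141 and 189 in those labelled wild-type. Both overlapped, at 0.17 ± 0.23 and 0.19 ± 0.19 (SE), and limma's adjusted p values were 0.851 and 0.78. Other Eif2ak1 probe sets bright enough to be tested were negative, at -0.10 and -0.40. Those of Eif2ak2 were at -0.078 and 0.52, so the signs of these kinases depend on the probe set read.

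**Figure D3:**
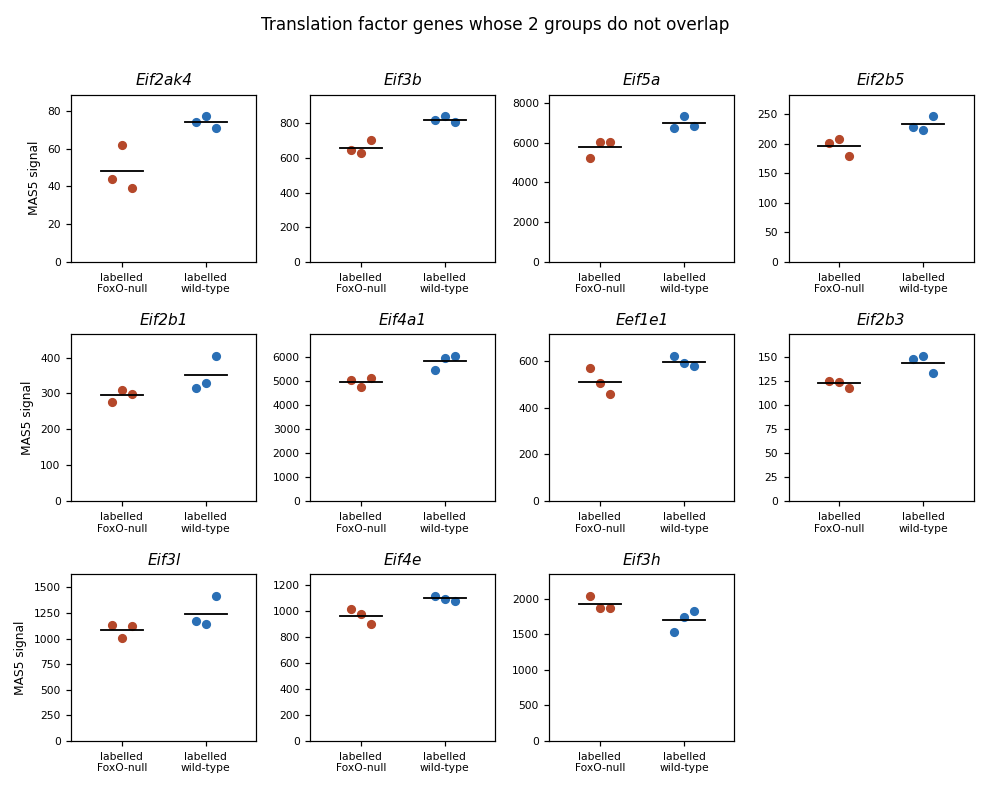
MAS5 signal of the 11 translation factor genes whose groups do not overlap, with 1 point per line and a bar at the group mean, for lines labelled FoxO-null (red, left) and wild-type (blue, right). Lines labelled FoxO-null lie lower in 10 panels and higher in that of Eif3h.

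The 11 tested subunits of eIF3, the scaffold that joins the small subunit to eIF4G, included 5 positive and 6 negative log2 fold changes. The negative share was 54.5%, against 48.2% of all genes, and the median was -0.040. Eif3b, a conserved core subunit, read 648, 627 and 703 in the lines labelled FoxO-null, against 819, 841 and 806 in those labelled wild-type. The highest line labelled FoxO-null stayed well below the lowest labelled wild-type, and the log2 fold change was -0.32 ± 0.10 (SE; 95% interval -0.55 to -0.088), with limma's adjusted p at 0.33. Eif3a, the largest subunit, read 1309.5, 1537 and 1448 in the lines labelled FoxO-null, against 1940.4, 1915 and 1368 in those labelled wild-type. Here wild-type line 3 was as low as the lines labelled FoxO-null, and the groups overlapped (-0.27 ± 0.14 SE, limma adjusted p = 0.559).

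Eif3h, another eIF3 subunit, read 2044, 1864 and 1874 in the lines labelled FoxO-null, against 1530.4, 1743 and 1823 in those labelled wild-type. Every line labelled FoxO-null was higher than every line labelled wild-type, by 0.18 ± 0.11 (SE, limma adjusted p = 0.607) on the log2 scale. Eif3k read 1313, 1233 and 1273 in the lines labelled FoxO-null, against 810.2, 1109 and 1538 in those labelled wild-type. Its difference of 0.19 ± 0.19 (SE) came with 1 low line: without wild-type line 1 it was -0.038. Eif3i read 3363, 3005 and 3281 in the lines labelled FoxO-null, against 2967, 3147 and 3108 in those labelled wild-type, and the groups overlapped. Eif3l, chosen after its values were seen, read 1129.5, 1008 and 1119 in the lines labelled FoxO-null, against 1168, 1139 and 1420.1 in those labelled wild-type.

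Of 7 genes listed under start codon scanning and subunit joining (Eif1ad and Eif2d included), 5 were negative (71.4%, against 48.2% of all genes). Their median was -0.065. No groups separated, where 7.93% of all genes lay wholly below and 8.08% wholly above. Eif1a, which encodes a form of the scanning factor eIF1A, read 118, 136 and 115 in the lines labelled FoxO-null, against 152, 151 and 133 in those labelled wild-type. The groups overlapped at 1 line, and the difference was -0.23 ± 0.15 (SE, limma adjusted p = 0.641). A second Eif1a probe set also overlapped, at -0.49 ± 0.21 (SE, limma adjusted p = 0.662 in the fit across probe sets). Eif1b, a relative of eIF1, which guards start codon choice, read 937, 871 and 1008 in the lines labelled FoxO-null, against 836, 831 and 904 in those labelled wild-type. Its difference was 0.13 ± 0.11 (SE), with overlapping groups.

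The cap complex and its helpers had 9 tested members, with a median of -0.021, 4 positive and 5 negative (55.6%, against 48.2% of all genes). Eif4a1, the main eIF4A helicase, read 5045, 4774 and 5112 in the lines labelled FoxO-null, against 5458, 5963 and 6047 in those labelled wild-type. Eif4e, the cap-binding subunit, read 1017, 974 and 897 in the lines labelled FoxO-null, against 1119.6, 1093 and 1077 in those labelled wild-type. In both genes all 3 lines labelled FoxO-null lay below all 3 labelled wild-type. The log2 fold changes were -0.23 ± 0.11 for Eif4a1 and -0.19 ± 0.10 for Eif4e (SE), and limma's adjusted p values were 0.506 and 0.566. Eif4a2, the closely related second helicase, read 1302, 1296 and 1163 in the lines labelled FoxO-null, against 1179, 1409 and 1247 in those labelled wild-type. Those values interleave, and the difference of -0.026 ± 0.11 (SE) lies well inside the spread. Eif4g1, the main scaffold, was not analysed here.

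Among 3 eIF4E-binding repressors the median was -0.076. Eif4ebp1 (4E-BP1, the repressor whose release is controlled by mTORC1) read 326, 414 and 510.1 in the lines labelled FoxO-null, against 436, 541 and 433 in those labelled wild-type. Eif4ebp2, its relative, read 426, 388 and 494 in the lines labelled FoxO-null, against 434, 388 and 455 in those labelled wild-type. Both overlapped, at -0.19 ± 0.16 and 0.030 ± 0.13 (SE), with limma adjusted p values of 0.746 and 0.957. The 95% intervals were -0.55 to 0.17 for Eif4ebp1 and -0.25 to 0.31 for Eif4ebp2.

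All 3 members of the eIF5A and eIF6 group were negative, against 48.2% of all genes, with a median of -0.25. Eif5a, the hypusine-bearing factor that helps stalled ribosomes, read 5216, 6064 and 6047 in the lines labelled FoxO-null, against 6739, 7332 and 6868 in those labelled wild-type. The groups did not overlap, and the log2 fold change was -0.28 ± 0.11 (SE; 95% interval -0.52 to -0.027; limma adjusted p = 0.434). Eif5a2, its relative, read 49.9, 75.4 and 65.7 in the lines labelled FoxO-null, against 66.0, 88.5 and 74.1 in those labelled wild-type. Eif6, which keeps ribosomal subunits apart, read 519, 484 and 508 in the lines labelled FoxO-null, against 492, 518 and 647 in those labelled wild-type. Both overlapped, at -0.25 ± 0.22 for Eif5a2 and -0.12 ± 0.13 for Eif6 (SE).

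The eEF1 group of 5 tested genes had a median of -0.21. Eef1a1, which carries aminoacyl-tRNA to the ribosome, read 14973, 12741 and 17849 in the lines labelled FoxO-null, against 11205, 14712 and 17644 in those labelled wild-type. The lines of each group spanned much of the same range, and the difference was 0.076 ± 0.18 (SE), or -0.10 without wild-type line 1. Eef1a2, the form typical of mature neurons and muscle, read 74.3, 71.7 and 113 in the lines labelled FoxO-null, against 96.4, 80.3 and 125 in those labelled wild-type, with overlap (-0.21 ± 0.23 SE). Close copies of Eef1a1 exist in the genome, and how far its probes tell them apart was not tested.

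Eef1e1 (AIMP3, a scaffold of the multi-tRNA synthetase complex) read 567, 505 and 458 in the lines labelled FoxO-null, against 619.5, 591 and 575 in those labelled wild-type. The groups did not overlap, though the nearest lines lay close (-0.23 ± 0.12 SE, limma adjusted p = 0.548). Eef1d, part of the exchange factor of eEF1A, read 909, 701 and 864 in the lines labelled FoxO-null, against 982, 1010.4 and 897 in those labelled wild-type, and 1 pair of lines overlapped (-0.23 ± 0.12 SE). Eef2, the translocation factor, read 8369.9, 7359 and 8732 in the lines labelled FoxO-null, against 6765, 8312 and 8628 in those labelled wild-type. Eef2k, the kinase that inhibits eEF2, read 179, 183 and 146 in the lines labelled FoxO-null, against 168, 151 and 189.9 in those labelled wild-type. Both sets of values overlapped, at 0.050 ± 0.13 for Eef2 and -0.0035 ± 0.16 for Eef2k (SE). Eef1akmt1, a methyltransferase of eEF1A, read 219.6, 149 and 139 in the lines labelled FoxO-null, against 173, 112 and 170.5 in those labelled wild-type, and the groups overlapped (0.15 ± 0.22 SE).

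Of the 10 members lower in all lines labelled FoxO-null, the RefSeq promoter table (GRCm38.p6) lists 9, and among these Eif4a1, Eif4e and Eif5a are the ones whose promoters hold CACGTG, the E-box that Myc with Max and other basic helix-loop-helix factors bind. For each, 1 start is shown as the 250 bases before it, 5′ to 3′ on the gene's strand, with the E-box in capitals. The Eif4a1 window is chr11:69672424-69672673 on the minus strand, that of Eif4e is chr3:138527018-138527267 on the plus strand, and that of Eif5a is chr11:69921387-69921636 on the minus strand.
Eif4a1: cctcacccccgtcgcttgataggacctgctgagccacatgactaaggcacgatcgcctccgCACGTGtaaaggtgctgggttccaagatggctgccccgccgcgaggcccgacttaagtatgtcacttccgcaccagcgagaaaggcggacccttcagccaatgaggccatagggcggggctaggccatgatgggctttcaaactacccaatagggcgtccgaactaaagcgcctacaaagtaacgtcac
Eif4e: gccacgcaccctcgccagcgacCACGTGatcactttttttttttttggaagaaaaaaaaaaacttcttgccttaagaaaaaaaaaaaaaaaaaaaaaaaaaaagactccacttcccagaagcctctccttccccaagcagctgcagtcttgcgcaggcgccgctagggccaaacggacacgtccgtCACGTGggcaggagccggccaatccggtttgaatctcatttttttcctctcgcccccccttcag
Eif5a: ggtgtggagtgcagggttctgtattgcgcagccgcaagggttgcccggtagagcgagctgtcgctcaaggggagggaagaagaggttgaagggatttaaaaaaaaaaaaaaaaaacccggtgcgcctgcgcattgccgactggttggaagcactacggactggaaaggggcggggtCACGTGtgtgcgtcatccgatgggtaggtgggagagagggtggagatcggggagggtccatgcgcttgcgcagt
The E-box lies at -189 in Eif4a1, at -228 and -64 in Eif4e, and at -74 in Eif5a, counted from the start of transcription. Eif4e has it before 1 of 2 listed starts, and Eif5a before 3 of 6.

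The same table held a promoter for 45 members, each 300 bases long, of which 50 follow the start. CACGTG, which reads the same on both strands, occurred in 12 of 45 members (26.7%), against 2187 of 27025 genes (8.09%). By promoter it was 14 of 60 for members (23.3%), against 7.15% of all promoters. Among members with a promoter in the table, it was in 3 of the 9 (33.3%) that were lower in all lines labelled FoxO-null and in 9 of the 34 (26.5%) others tested. The median log2 fold change was -0.087 for the 12 members with the E-box and -0.065 for the 31 without it. The FoxO-type motif GTAAACA, searched on either strand, was in 0 of 60 member promoters, against 3.65% of all promoters. A match is a description of these letters only, and no match says only that they are not in this window.

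Several genes had more than 1 probe set, which gives another reading under the same gene symbol. Whether the probe sets of a gene read the same transcripts was not tested. The 54 tested and 2 dim members held 150 probe sets, of which 130 passed the same brightness filter, and 78 of those 130 (60%) were negative, with a median of -0.073, against 48.6% of all 27022 probe sets above the filter. In a limma fit across 45037 probe sets, 0 member probe sets passed an adjusted p under 0.05 (smallest 0.348), and at an unadjusted p under 0.05, 5 (3.85%) were lower and 2 (1.54%) higher, against 4.29% lower and 4.31% higher of all above the filter. Of 35 members with more than 1 such probe set, 12 had a single sign and 23 did not. The second Eif5a probe set read 1947, 2283 and 2123 in the lines labelled FoxO-null, against 2947, 2971 and 2596 in those labelled wild-type, at -0.42 ± 0.12 (SE). It did not overlap either. All 3 Eif4a1 probe sets were lower without overlap, between -0.23 and -0.20. All 4 Eif3a probe sets were negative, and 1 of them read 180.2, 150.3 and 167 in the lines labelled FoxO-null, against 251, 240.3 and 233 in those labelled wild-type (-0.53 ± 0.13 SE, limma adjusted p = 0.348). Of 4 Eif4e probe sets, the brightest gave the value above, the next was at -0.23 ± 0.12 (SE) with overlapping groups, and the others lay near 0. The 2 higher probe sets belong to genes whose main probe sets overlapped, and they were named after their values were seen. That of Eef1akmt1 read 82.9, 59.5 and 55.3 in the lines labelled FoxO-null, against 9.69, 28.9 and 46.2 in those labelled wild-type (1.22 ± 0.42 SE, limma adjusted p = 0.543). That of Eif4ebp2 read 161, 191 and 151 in the lines labelled FoxO-null, against 122, 126 and 143 in those labelled wild-type (0.35 ± 0.16 SE, limma adjusted p = 0.678). In both, all 3 lines labelled FoxO-null were above all 3 labelled wild-type.

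**Figure D4:**
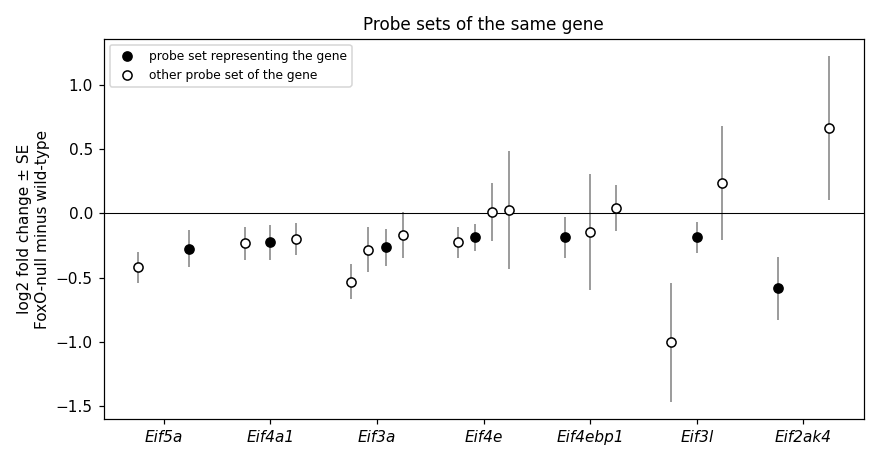
Log2 fold change ± SE (FoxO-null over wild-type, by the labels) of every probe set above the filter for 7 translation factor genes, with the probe set representing the gene filled. Those of Eif5a, Eif4a1 and Eif3a lie below 0, and those of the other 4 genes lie on both sides of it.

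Across lines, the members' differences were small. Their median deviation from each gene's mean was 0.0016, -0.049 and -0.052 on the arrays of the lines labelled FoxO-null, against 0.026, 0.0050 and 0.056 on those labelled wild-type, on the log2 scale. Over all genes the same medians were 0.021, 0.0058 and 0.0091 in the lines labelled FoxO-null, against -0.0060, -0.0011 and 0.031 in those labelled wild-type. Lines 1, 2 and 3 labelled wild-type were highest for 13, 12 and 14 members, against 6, 3 and 6 for those labelled FoxO-null. Lines labelled FoxO-null were lowest for 9, 11 and 14 members, against 8, 9 and 3 for those labelled wild-type. Leaving out 1 line at a time, the members' median stayed between -0.094 and -0.046.

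Other genes of the pathway were counted in 5 lists, and none passed limma's adjusted threshold (smallest adjusted p = 0.196). Each was read from 1 probe set. Several have more, such as Denr with 2 in all and Etf1 and Gspt1 with 6 each. Those other probe sets were not read gene by gene, so their direction is not given here. Of 14 genes of termination, recycling and poly(A) binding, 10 were negative (median -0.12), with 3 lower and 1 higher at an unadjusted p under 0.05, where all genes gave 48.2% negative, 4.9% lower and 5.31% higher. Denr, which helps ribosomes restart after short upstream reading frames, read 389, 376 and 384 in the lines labelled FoxO-null, against 521, 521 and 523 in those labelled wild-type. Its groups were tight and far apart, at -0.44 ± 0.11 (SE). Etf1, the release factor that reads stop codons, read 504, 669 and 467 in the lines labelled FoxO-null, against 770.1, 817 and 638 in those labelled wild-type, with overlap (-0.45 ± 0.15 SE, limma adjusted p = 0.348). Its partner Gspt1 was the third lower gene, chosen after its values were seen, at 401, 402 and 423 in the lines labelled FoxO-null, against 536, 492 and 469 in those labelled wild-type. Pdcd4, an inhibitor of eIF4A, read 867, 831 and 684 in the lines labelled FoxO-null, against 493, 641 and 599.9 in those labelled wild-type (0.46 ± 0.14 SE, limma adjusted p = 0.281). All 3 lines labelled FoxO-null were above all 3 labelled wild-type.

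**Figure D5:**
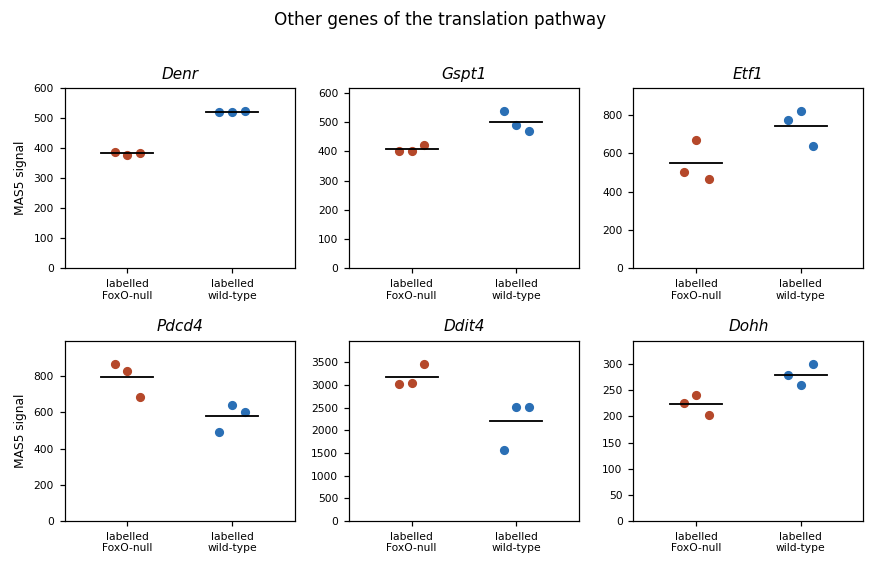
MAS5 signal of 6 other genes of the translation pathway, with 1 point per line and a bar at the group mean, for lines labelled FoxO-null (red, left) and wild-type (blue, right). Denr, Gspt1 and Dohh lie lower in all 3 lines labelled FoxO-null, Pdcd4 and Ddit4 lie higher, and Etf1 overlaps.

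Of 13 genes of the mTORC1 pathway, 6 were positive and 7 negative, with a median of -0.0060 and 1 higher at an unadjusted p under 0.05 (5.31% of all genes). That gene was Ddit4 (REDD1, an inhibitor of mTORC1), which read 3029, 3051 and 3459 in the lines labelled FoxO-null, against 1561, 2524 and 2508 in those labelled wild-type (0.56 ± 0.17 SE, limma adjusted p = 0.292). Its groups did not overlap. Mtor itself read 259, 294 and 321 in the lines labelled FoxO-null, against 373, 311 and 334 in those labelled wild-type, with overlap (-0.22 ± 0.13 SE). Of 11 genes of the response to eIF2 alpha phosphorylation, 7 were positive and 4 negative, and 0 passed an unadjusted p under 0.05. Atf4, the transcription factor at its centre, read 1030.1, 694 and 1269 in the lines labelled FoxO-null, against 713, 1126 and 1018 in those labelled wild-type, and the values interleaved. Of 8 tested enzymes of hypusine and diphthamide, the modified residues of eIF5A and eEF2, 6 were negative, with 1 lower at an unadjusted p under 0.05, against 48.2% negative and 4.9% lower among all genes. It was Dohh, the hydroxylase that completes hypusine, with 225, 239.9 and 203 in the lines labelled FoxO-null, against 279.8, 259.6 and 299.7 in those labelled wild-type (-0.32 ± 0.13 SE, limma adjusted p = 0.428). Of 8 mitochondrial translation factors, 6 were negative (median -0.18), and 0 passed an unadjusted p under 0.05.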

How the data were processed

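Total RNA of 6 lines was hybridised to Affymetrix arrays. The deposited intensity values are signals the authors made with MAS5 (version not given), per the submitters' processing notes. Each array's mean after trimming 2% at each end was 100. The deposited scaling was kept because the ratio of the highest to the lowest array median, 1.29, was under the limit of 1.5. Every value column was used (0 left out). Of 45101 probe sets, 64 were controls, 34945 had 1 gene, 932 several and 9160 none. All 56 member symbols matched the mouse gene table.

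Each gene took its probe set of highest mean signal. The scale was log2(signal + 5.94), with an offset at the 20th percentile of all values, which understates changes of dim genes. Genes under the 40th percentile of mean log2 value (signal 16.2) were left out. limma 3.58.1 (in R 4.3.3, with version 1.17.8 of data.table) fitted 12663 genes with an intensity trend and no covariates, two-sided, with Benjamini-Hochberg adjustment and a threshold of 0.05. The script was tested on simulated data. Levels of different genes were not compared.

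Genes described by line were the 8 of smallest limma p in each direction, a fixed list of core factors, and up to 2 per direction in each pathway list at p under 0.05. Members and lists were chosen with earlier results of these data known. Alternatives covered the offset, filter, scaling, choice of probe set, trend, replicate block and each line left out.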

Additional observations from a re-analysis of the deposited data

How the results depend on the processing

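The count of translation factor genes called by limma was 0 in all 16 alternatives, with 1 (1.85%, without wild-type line 2, against 9.03% of all genes) to 7 (13.0%, mean of all probe sets, against 9.85%) at an unadjusted p under 0.05. The count over all genes, 5, was 1 with an offset of 1, without the filter, with quantile normalization and with the mean of all probe sets, and 0 with median centring and without the trend. Leaving out 1 line gave 0 (FoxO-null 1) to 11 (wild-type 3) genes, with 1 without FoxO-null 3 and 3 without wild-type 1 or 2. Members with all lines labelled FoxO-null below all labelled wild-type, 10, numbered 11 to 16 with 1 line left out (15 when this was wild-type 2 and 16 when it was wild-type 3), where 11.8% to 13.5% of all genes were so placed. The members' median moved to -0.14 with median centring. Eif3b, Eif4a1 and Eif5a kept their direction and separation in all 16 alternatives, at -0.39 to -0.28, -0.30 to -0.20 and -0.36 to -0.20. Most of these could not have come out otherwise. For a given probe set, leaving out a line or changing the offset, filter, trend or block cannot make separated groups overlap. Only the scaling and the choice of probe set could.

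The filter, trend and block alternatives leave each fold change as it is and could not reverse it. With them counted, of 416 values of 26 named members 393 kept their side and 23 reversed, all uncalled. With median centring, which shifts every gene alike by 0.068 towards lower values, these were Eef2 (-0.019), Eif3i (-0.0041) and Eif4ebp2 (-0.039). With quantile normalization they were Eef2 (-0.034) and Eef2k (0.0088). With the mean of all probe sets they were Eef2k (0.14), Eif2ak1 (-0.24), Eif2ak3 (-0.12), Eif2ak4 (0.039) and Eif3i (-0.094). Leaving out 1 line, the ranges that cross 0 were -0.10 to 0.23 for Eef1a1, -0.051 to 0.27 for Eef1akmt1, -0.058 to 0.12 for Eef2, -0.082 to 0.095 for Eef2k, -0.038 to 0.42 for Eif3k, -0.082 to 0.046 for Eif4a2 and -0.063 to 0.11 for Eif4ebp2. Beyond the smaller number of lines or the averaging itself, the cause was not tested.

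Lines of the 2 groups share replicate numbers. Their deviations correlated at 0.023, 0.092 and 0.12, each highest with its own number but only 1 over 0.1, so they were taken to share only a number. With the replicate block limma called 6 genes and 0 members (smallest adjusted p 0.349). At an unadjusted p under 0.05 were 4 members (7.41%), against 10.9% of all genes. The 3 lines per group limit precision, and Eif4e3 and Eef1aknmt, at or under background on some arrays, carry wide intervals.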
